A study of Mus musculus with 18 samples.

Results

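Microglial receptor genes and the TYROBP adaptor were read in RNA of spinal motor neurons captured by laser from mice of an inherited amyotrophic lateral sclerosis model. The 10 genes, of 12393 named on the array, were Tyrobp, Trem2, Csf1r, Cx3cr1, P2ry12, Fcgr3, Fcer1g, Itgam, Laptm5 and Ptprc. Every probe set whose platform annotation gives 1 gene symbol equal to one of these names was taken, which gave 16 of the 22690 probe sets on the array. Of these 16, 13 probe sets of 9 genes lay above their array's median signal in at least 3 of the 18 arrays and were tested. Itgam, a second Trem2 and a second Cx3cr1 probe set did not reach that level and are given as values only.

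The tested animals carried the SOD1 G93A transgene, a mutant form of human superoxide dismutase, and are called G93A here. Their non-transgenic littermates are called controls. Animals were 60, 90 or 120 days old, with 3 animals and 3 arrays in each of the 6 groups, and neither strain nor sex was stated in the labels. From each animal 1000 motor neurons were cut out of 10 µm lumbar sections stained with toluidine blue, and the biotin-labelled RNA was hybridized to 1 array. The RNA of an animal was thus pooled over many cells, and in such RNA more cells of a type and more RNA per cell cannot be told apart.

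TYROBP, also called DAP12, is a membrane adaptor of myeloid cells. When a partner receptor such as TREM2 binds its ligand, tyrosines in the tail of TYROBP are phosphorylated and recruit the kinase SYK. FCER1G is a related adaptor that serves Fc receptors, CSF1R is the growth factor receptor on which microglial survival depends, and CX3CR1 and P2RY12 are receptors typical of surveying microglia that are known to decline in activated cells.

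Signals are in the deposited linear unit, scaled so that the trimmed mean of each array is about 100. A difference is given on the log2 scale as G93A minus control, or as 120 minus 60 days, with the standard error of the limma fit, and it counts as a change where the adjusted p is below 0.05. The label of the material was checked first. Nefl, the light neurofilament chain, had signals between 6044.4 and 26845.7 over the 18 arrays. Slc18a3, the vesicular acetylcholine transporter of motor neurons, had signals between 2.7 and 53.2, never above its array's median. Of the microglia-defining genes, Aif1 exceeded its array's median on 1 array (3.9 to 85.9) and Tmem119 on 0 (5.3 to 49). The microglial name of the 10 genes therefore comes from what they are known for and not from these 2 markers in the captures.

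Sod1 was read by 2 probe sets, and whether either detects the human transcript was not tested. Probe set 1451124_at had 418.1, 206 and 415.1 in G93A mice at 60 days, against 173.5, 178.9 and 240.9 in controls. At 90 days it had 261.7, 638.7 and 622.3 in G93A mice, against 186.5, 207.4 and 232.5 in controls. At 120 days it had 294.5, 377.3 and 448.8 in G93A mice, against 1576.9, 134.2 and 213.4 in controls. The first control array of 120 days was thus the highest of all 18 on this probe set, while its signal on the other Sod1 probe set, 1435304_at, was 120.2, within the range of the other arrays. The genotype differences at 120 days without it are given below, after those of each gene.

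Of the 10 genes, 8 were found among RefSeq promoter windows of the assembly GRCm38.p6, in 10 windows, and Tyrobp and Csf1r were not matched. The 250 bases before the start of 3 genes are shown because some of their probe sets moved in different directions with age in control mice. Laptm5 1436905_x_at moved upward, and the tested probe sets of Cx3cr1 and P2ry12 moved downward. Laptm5 itself was divided, since 1417721_s_at (-2.88) and 1426025_s_at (-0.79) also moved downward. Capitals mark matches to GGAAGT (reverse strand ACTTCC) or GAGGAA (reverse strand TTCCTC), short core words of the kind bound by Spi1, an ETS factor of myeloid cells. The motifs were searched on both strands and do not overlap each other in these windows.
Laptm5, chr4:130913066-130913315, plus strand: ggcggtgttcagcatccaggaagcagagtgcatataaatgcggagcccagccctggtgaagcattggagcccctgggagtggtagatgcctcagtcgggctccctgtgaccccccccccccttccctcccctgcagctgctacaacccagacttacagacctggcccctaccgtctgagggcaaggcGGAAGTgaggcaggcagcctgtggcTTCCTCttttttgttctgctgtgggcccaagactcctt
Cx3cr1, chr9:120068297-120068546, minus strand: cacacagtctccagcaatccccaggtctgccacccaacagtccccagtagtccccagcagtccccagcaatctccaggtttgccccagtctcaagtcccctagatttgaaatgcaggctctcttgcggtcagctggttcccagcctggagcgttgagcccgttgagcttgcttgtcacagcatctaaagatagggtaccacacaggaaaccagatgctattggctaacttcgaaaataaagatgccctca
P2ry12, chr3:59262986-59263235, minus strand: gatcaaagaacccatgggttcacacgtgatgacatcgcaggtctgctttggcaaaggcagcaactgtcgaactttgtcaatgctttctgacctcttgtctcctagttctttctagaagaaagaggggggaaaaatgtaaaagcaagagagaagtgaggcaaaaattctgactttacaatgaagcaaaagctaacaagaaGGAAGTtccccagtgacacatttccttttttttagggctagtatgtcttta
The Laptm5 window held GGAAGT 63 bases and GAGGAA, on the reverse strand, 38 bases before the start. The P2ry12 window held GGAAGT 51 bases before the start, and the Cx3cr1 window held neither word. Either word was found in 8 of the 10 windows of these genes, that is for 6 of 8 genes: Trem2, P2ry12, Fcgr3, Itgam, Laptm5 and Ptprc. Among all 32851 windows of the same length 36.7% held either word, 19.7% held GGAAGT and 23.3% held GAGGAA. The matches describe letters in these windows, and the windows of 1 gene can share bases.

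The genotype comparison asked whether the receptor and adaptor transcripts differed between G93A and control captures at each age. Tyrobp was higher in every G93A group mean and was the only 1 of the 13 tested probe sets to pass the test at 60 days and in the mean over the 3 ages. At 120 days 12 of 13 probe sets had positive differences, where 54.5% of all tested probe sets did. In 10 of 13 all 3 G93A arrays lay above all 3 controls, yet 0 passed the test. These 10 were those of Tyrobp and Trem2, all 3 of Csf1r, those of Cx3cr1, P2ry12 and Fcgr3, and 2 of 3 of Laptm5. Fcgr3 exceeded its array's median on 5 arrays, 3 of them G93A arrays of 120 days, and Trem2 on 3, 1 of them from that group. Both would have missed the filter on low signal without that group, so the count is a description only.

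For the threshold, 1 of 13 tested probe sets of these genes passed at 60 days, where 0.688% of all 16565 tested probe sets did. At 90 days the count was 0 of 13 (0% of all), and at 120 days 0 of 13 (0.0241% of all). In the mean over the 3 ages 1 of 13 passed (0.0121% of all), and in the F test of a change of the genotype difference with age 0 of 13 (0.417% of all). Unadjusted p-values below 0.05 were found for 1, 4 and 8 of the 13 at 60, 90 and 120 days, against 2084, 756 and 2022 of the 16565.

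Separation of the arrays was counted beside the threshold. All 3 G93A arrays lay above all 3 controls for 1 of 13 probe sets at 60 days, where 7.85% of all probe sets did so. At 90 days this held for 2 of 13 (5.59% of all), and at 120 days for 10 of 13 (9.87% of all). Over the 13 probe sets the median difference came to -0.50, 0.77 and 1.75 at 60, 90 and 120 days, beside medians over all tested probe sets of -0.07, -0.02 and 0.09. Several of the 13 share a gene, so they are not independent readings.

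**Figure D1:**
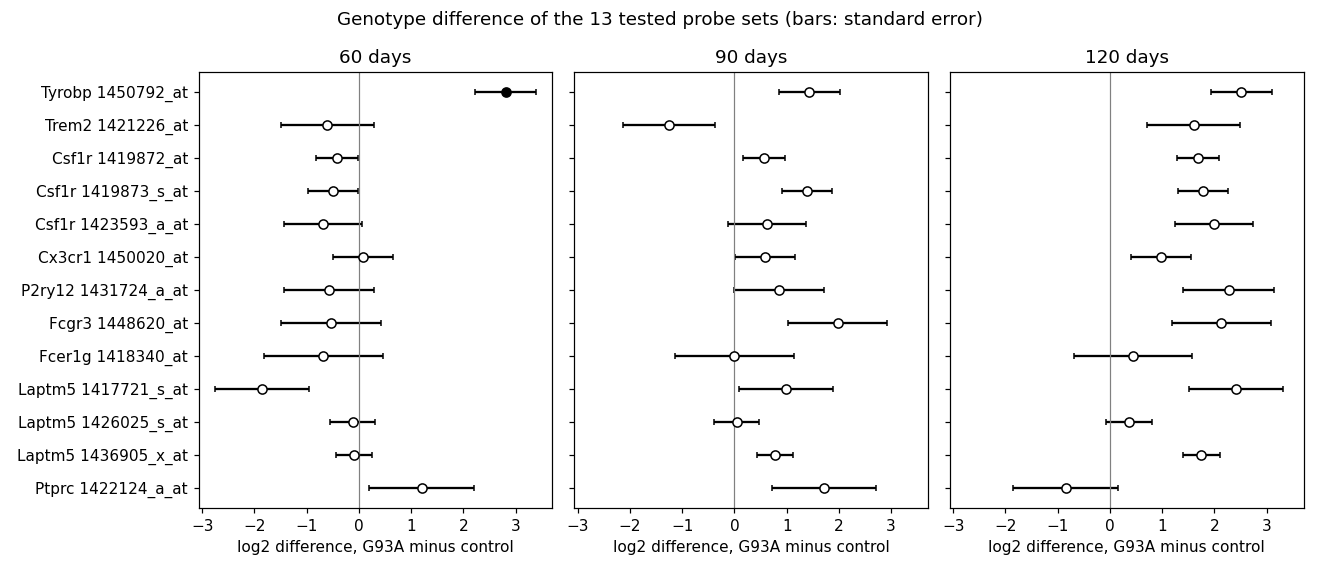
Log2 difference, G93A minus control, of each tested probe set at 60, 90 and 120 days, 1 row per probe set, with bars of 1 standard error from the limma fit (3 animals per group). Filled symbols mark adjusted p below 0.05 and open symbols the rest: Tyrobp at 60 days (2.81) is the only filled one, and at 120 days 12 of 13 probe sets lie above 0.

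Tyrobp, the adaptor, was read by 1 probe set. At 60 days its signals were 105.9, 159.1 and 126 in G93A mice, against 10.5, 17.2 and 33.8 in controls. All 3 G93A arrays lay above all 3 controls, and the difference of 2.81 ± 0.58 (7.03-fold) passed the test with a limma adjusted p of 0.0227. At 90 days the signals were 33.6, 127.4 and 90.8 in G93A mice, against 53.8, 15.9 and 23.1 in controls, so the groups overlapped. The 90-day difference was 1.43 ± 0.58 (adjusted p = 0.997). At 120 days the signals were 982.7, 1239.3 and 795.9 in G93A mice, against 97.5, 152.4 and 353.3 in controls. Every G93A array was again above every control, with a difference of 2.51 ± 0.58 (5.69-fold, adjusted p = 0.105).

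Over the 3 ages Tyrobp was 2.25 ± 0.34 higher in G93A mice (4.76-fold, 9 animals against 9, limma adjusted p = 0.0100), and of all 16565 probe sets it had the smallest p in that comparison. Its genotype difference was not shown to change with age (F test adjusted p = 0.631). Without the second G93A array of 120 days the mean difference was 2.20 (adjusted p = 0.0612), and with the Gapdh ratio described below in the model 2.59 (adjusted p = 0.213). In order of level the group means on the log2 scale were 4.19 in controls of 60 days, 4.76 in controls of 90 days, 6.19 in G93A mice of 90 days, 7.01 in G93A mice of 60 days, 7.44 in controls of 120 days and 9.95 in G93A mice of 120 days. Neighbours in this order overlapped in their arrays, except that G93A mice of 120 days stood above controls of 120 days. Within groups the SD of the log2 level lay between 0.29 and 1.00.

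The 60-day call for Tyrobp moved with array quality and with single arrays. The log2 ratio of 3' to 5' Gapdh signal, a measure of RNA length, lay between 3.88 and 4.63 in the G93A arrays of 60 days and between 3.00 and 3.66 in the controls. The mean log2 level of the hybridization controls lay between 7.75 and 10.68 in those G93A arrays and between 10.70 and 11.45 in the controls. Adjusting for the Gapdh ratio gave a Tyrobp difference of 3.14 (limma adjusted p = 0.0739), and adjusting for the hybridization controls gave 3.57 (adjusted p = 0.101). Without the first G93A array of 60 days it was 2.95 (adjusted p = 0.113), and without the second 2.66 (adjusted p = 0.0897). The part of RNA quality in the 60-day difference was not tested beyond these fits.

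**Figure D2:**
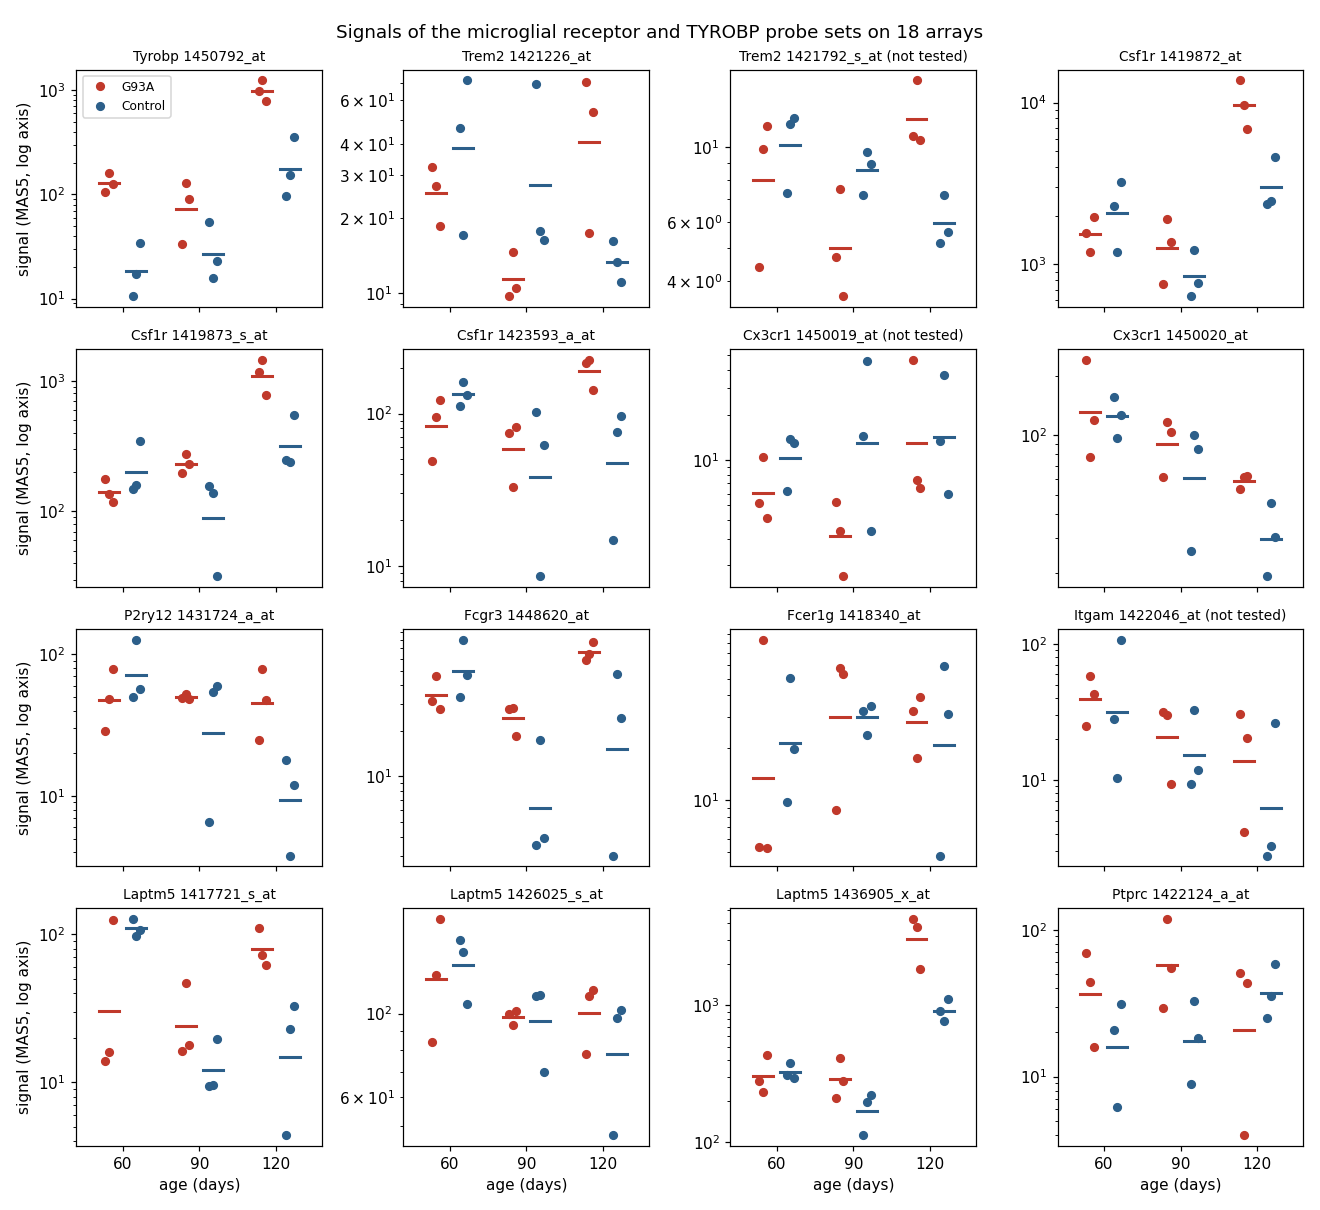
Signal of each of the 16 probe sets, 1 panel per probe set, in each of the 18 arrays (points) on a log axis with its own range, by age in days and genotype, with lines at the geometric means of 3 animals. Tyrobp in G93A mice at 120 days sits between 795.9 and 1239.3, above all other arrays of that probe set.

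Trem2, a receptor that signals through TYROBP, was read at low signal. Probe set 1421226_at had 32.1, 27.1 and 18.6 in G93A mice at 60 days, against 46.1, 17.1 and 72 in controls. At 90 days it had 9.7, 14.6 and 10.5 in G93A mice, against 69.7, 17.8 and 16.3 in controls, so every G93A array lay below every control. At 120 days it had 70.8, 17.5 and 53.8 in G93A mice, against 16.2, 13.3 and 11.1 in controls, so every G93A array lay above every control. The difference was -1.26 ± 0.88 at 90 days (adjusted p = 0.997) and 1.60 ± 0.88 at 120 days (adjusted p = 0.485). Without the first control of 90 days, the array at 69.7, the 90-day difference was -0.58. The F test of a change with age gave an adjusted p of 0.440. The second Trem2 probe set, 1421792_s_at, stayed below its array's median in all 18 arrays and was not tested. At 120 days it had 10.8, 15.8 and 10.5 in G93A mice, against 5.2, 7.2 and 5.6 in controls.

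Csf1r, the receptor for CSF1 and IL34, was read by 3 probe sets, and at 120 days every G93A array exceeded every control on each of them. Probe set 1419872_at had 13708.2, 9707.9 and 6871.9 in G93A mice at 120 days, against 2375.4, 2484.5 and 4619.8 in controls. That difference was 1.69 ± 0.40 (3.23-fold, adjusted p = 0.105). At 60 days it had 1566.8, 1197.1 and 1953.1 in G93A mice, against 2303.8, 1188.1 and 3225.6 in controls, and the groups overlapped (-0.42 ± 0.40). At 90 days it had 754.8, 1908.5 and 1383.4 in G93A mice, against 634.8, 1232.5 and 772.7 in controls, again with overlap (0.57 ± 0.40).

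Probe set 1419873_s_at of Csf1r had 1158.8, 1442.8 and 780.4 in G93A mice at 120 days, against 248.5, 238.7 and 548.7 in controls (1.78 ± 0.48, adjusted p = 0.137). At 90 days its arrays were also apart, with 195.8, 273.4 and 229.3 in G93A mice, against 156.1, 138.8 and 32 in controls (1.38 ± 0.48, adjusted p = 0.997). Without the third control of 90 days, the array at 32, that difference was 0.65. Probe set 1423593_a_at had 215.9, 224.6 and 142.3 in G93A mice at 120 days, against 14.9, 75.2 and 96.9 in controls (2.00 ± 0.75, adjusted p = 0.275). Without the first control of 120 days it was 1.16 (adjusted p = 0.727). The 3 probe sets of Csf1r correlated with each other at r between 0.396 and 0.872 over the 18 arrays. F tests of a change of their genotype difference with age had adjusted p-values between 0.148 and 0.397.

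Fcgr3, a low-affinity receptor for IgG that signals through FCER1G, had 28, 28.2 and 18.4 in G93A mice at 90 days, against 3.5, 17.4 and 3.9 in controls. At 120 days it had 58.4, 64.2 and 77 in G93A mice, against 3, 47.4 and 24.2 in controls. The groups did not overlap at either age, and the differences were 1.98 ± 0.95 (adjusted p = 0.997) and 2.13 ± 0.95 (adjusted p = 0.366). With values under 16 set to 16 the 90-day difference was 0.57, and without the first control of 120 days the 120-day difference was 0.96. Fcer1g, the adaptor, overlapped between the genotypes at all 3 ages, with 32.7, 17.5 and 39.2 in G93A mice at 120 days, against 4.8, 59.1 and 31.4 in controls (0.44 ± 1.13). Itgam, the CD11b chain of a complement receptor, exceeded its array's median on 2 arrays, had signals between 2.8 and 107.2, and was not tested.

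Cx3cr1, the receptor for neuronal CX3CL1, had 53.2, 61.3 and 62 in G93A mice at 120 days, against 19.3, 45.4 and 30.3 in controls on probe set 1450020_at. The groups were apart, with a difference of 0.98 ± 0.57 (adjusted p = 0.517). At 60 days the same probe set had 241.5, 78.1 and 119.4 in G93A mice, against 157.4, 97.2 and 126.9 in controls, and at 90 days the groups overlapped as well (0.07 and 0.59). The second Cx3cr1 probe set, 1450019_at, stayed at low signal, between 1.7 and 46.3, was not tested, and correlated with the first at r = -0.331 over the 18 arrays. P2ry12, an ADP receptor that guides microglial processes, had 24.8, 78.3 and 47.1 in G93A mice at 120 days, against 17.8, 3.8 and 12 in controls. That difference was 2.27 ± 0.87 (4.83-fold, adjusted p = 0.287), and at 60 and 90 days it was -0.57 and 0.85 with overlapping groups. At 120 days P2ry12 exceeded its array's median on 1 G93A array and 0 controls, so the fold rests on low signals. Without the first control of 90 days the 90-day value was -0.19.

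Laptm5 encodes a lysosomal membrane protein of blood-derived and microglial cells, and its 3 tested probe sets did not move alike. Probe set 1436905_x_at had 4290.5, 3728.6 and 1843.4 in G93A mice at 120 days, against 905.9, 769 and 1107.8 in controls. The difference of 1.75 ± 0.35 (3.37-fold) had a limma adjusted p of 0.0700, and the probe set ranked 10 of 16565 by p. Probe set 1417721_s_at had 109.9, 72.2 and 61.9 in G93A mice at 120 days, against 4.4, 23 and 32.5 in controls (2.41 ± 0.90, adjusted p = 0.277). On 1426025_s_at the genotypes overlapped at 120 days, with 78, 111.6 and 115.6 in G93A mice, against 47.4, 97.2 and 102.3 in controls (0.36 ± 0.43). The probe sets correlated with each other at r between -0.194 and 0.581, and the suffix _x_at marks probes that may bind other transcripts.

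Ptprc, the CD45 phosphatase of all nucleated blood-derived cells, ran against the others at 120 days. It had 50.9, 4 and 43.7 in G93A mice at that age, against 25.1, 35.4 and 58.6 in controls (-0.85 ± 1.00, adjusted p = 0.777). Its differences at 60 and 90 days were 1.20 and 1.72 (± 1.00) with overlapping groups, so no direction can be given for it.

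At 120 days the count that passed moved most without 1 control array of that age. Other arrays and settings moved it less, as given in the last section. Without the third control, 4 of 13 probe sets passed: Tyrobp (3.02, limma adjusted p = 0.0225), Laptm5 1436905_x_at (1.89, adjusted p = 0.0225), and Csf1r 1419872_at (2.00, adjusted p = 0.0282) and 1419873_s_at (2.17, adjusted p = 0.0436). That control had the highest of the 3 control signals for each of the 4. Calls over all probe sets moved as well: 4 passed at this age with all arrays, and between 0 and 141 with 1 array left out. Without the first control of 120 days, the array with the high Sod1 reading, 0 of 13 passed and Tyrobp differed by 2.09 (adjusted p = 0.341), Laptm5 1436905_x_at by 1.74 (adjusted p = 0.169) and Csf1r 1419872_at by 1.52 (adjusted p = 0.326). Of the others, Fcer1g turned to -0.61, Ptprc had -1.14 and Laptm5 1426025_s_at 0.01. Laptm5 1417721_s_at had 1.53, Csf1r 1419873_s_at 1.59, Trem2 1.74, P2ry12 2.74 and Cx3cr1 0.66.

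The age comparison asked how the same transcripts differed between 120 and 60 days within each genotype, and it uses the same arrays as the genotype comparisons. In G93A mice Tyrobp, 2 Csf1r probe sets and Laptm5 1436905_x_at rose, which is 4 of 13 tested probe sets, where 2.00% of all probe sets passed. In controls Tyrobp and Laptm5 1436905_x_at rose while Cx3cr1 and P2ry12 fell, again 4 of 13, where 6.71% of all passed. The median of the 13 was 1.08 in G93A mice and -0.79 in controls, beside -0.11 and -0.26 over all tested probe sets. Array quality differed between the ages in G93A mice. The hybridization controls lay between 7.75 and 10.68 at 60 days and between 11.34 and 11.99 at 120 days. The Gapdh ratio lay between 3.88 and 4.63 at 60 days and between 4.60 and 5.57 at 120 days. The part of array quality in the G93A rises was not tested beyond the covariate fits. Of the 4 rises, only that of Tyrobp is given below with an array-quality covariate.

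**Figure D3:**
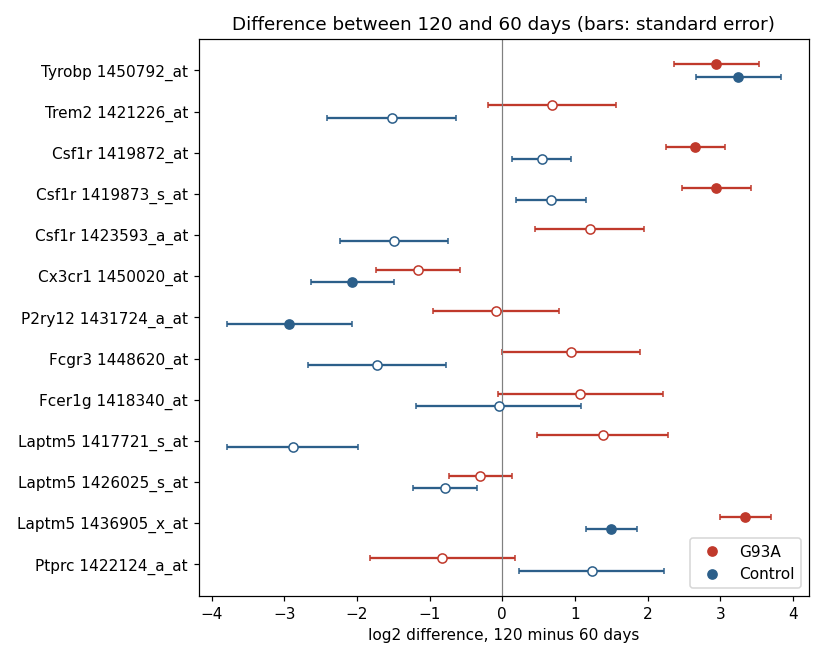
Log2 difference, 120 minus 60 days, of each tested probe set within G93A mice and within controls, with bars of 1 standard error (3 animals per age and genotype). Filled symbols mark adjusted p below 0.05: 4 lie above 0 in G93A mice, and in controls 2 lie above and 2 below.

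Laptm5 1436905_x_at had 4290.5, 3728.6 and 1843.4 in G93A mice at 120 days, against 279.1, 233.5 and 431.7 at 60 days. The rise of 3.35 ± 0.35 (10.2-fold, limma adjusted p = 1.98e-05) had the smallest p of all probe sets in that comparison. In controls it had 905.9, 769 and 1107.8 at 120 days, against 310.5, 376.4 and 292.7 at 60 days, a rise of 1.50 ± 0.35 (2.83-fold, adjusted p = 0.0125). The other probe sets of Laptm5 did not pass in either genotype. In controls 1417721_s_at had -2.88 ± 0.90 (adjusted p = 0.0533) and 1426025_s_at -0.79 ± 0.43 (adjusted p = 0.267). On both, every control array of 120 days lay below every one of 60 days.

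Tyrobp had 982.7, 1239.3 and 795.9 in G93A mice at 120 days, against 105.9, 159.1 and 126 at 60 days, a rise of 2.95 ± 0.58 (7.70-fold, limma adjusted p = 0.0120). Adjusting for the level of the hybridization controls gave 1.98 (adjusted p = 0.272), and without the first G93A array of 60 days or the second of 120 days the difference was 2.81 (adjusted p = 0.0526) and 2.78 (adjusted p = 0.0580). In controls Tyrobp had 97.5, 152.4 and 353.3 at 120 days, against 10.5, 17.2 and 33.8 at 60 days, a rise of 3.25 ± 0.58 (9.51-fold, adjusted p = 0.00174). Both genotypes thus had higher Tyrobp at 120 days, and the groups of arrays did not overlap in either.

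Csf1r rose in G93A mice on 1419872_at by 2.66 ± 0.40 (6.30-fold, limma adjusted p = 0.00186) and on 1419873_s_at by 2.95 ± 0.48 (7.71-fold, adjusted p = 0.00286). In controls these probe sets differed by 0.54 ± 0.40 (adjusted p = 0.423) and 0.67 ± 0.48 (adjusted p = 0.401). On 1423593_a_at all G93A arrays of 120 days lay above those of 60 days (1.20 ± 0.75) and all control arrays of 120 days lay below those of 60 days (-1.49 ± 0.75), and neither passed. Adjusting for the hybridization controls turned the G93A value to -0.81 and gave -1.94 in controls (adjusted p = 0.0403). A pass in G93A mice and a miss in controls does not show that the genotypes differed. Whether the change from 60 to 120 days differed between the genotypes was not tested by itself. The F test of a change of the genotype difference takes all 3 ages together, and it did not pass for any Csf1r probe set. Its unadjusted p-values were 0.0043 for 1419872_at, 0.0057 for 1419873_s_at and 0.056 for 1423593_a_at.

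Cx3cr1 had 53.2, 61.3 and 62 in G93A mice at 120 days, against 241.5, 78.1 and 119.4 at 60 days (-1.16 ± 0.57, limma adjusted p = 0.318). In controls it had 19.3, 45.4 and 30.3 at 120 days, against 157.4, 97.2 and 126.9 at 60 days, and fell by 2.06 ± 0.57 on the log2 scale (4.18-fold, adjusted p = 0.0317). Without the first control of 120 days the difference was -1.75 (adjusted p = 0.119), without the third -2.08 (adjusted p = 0.0562), and without the first or the third control of 60 days -1.90 (adjusted p = 0.0888) and -2.05 (adjusted p = 0.0789). P2ry12 had 24.8, 78.3 and 47.1 in G93A mice at 120 days, against 28.9, 48.2 and 78.4 at 60 days, with overlap (-0.09 ± 0.87). In controls P2ry12 had 17.8, 3.8 and 12 at 120 days, against 49.8, 126.5 and 57.1 at 60 days, and fell by 2.93 ± 0.87 on the log2 scale (7.62-fold, adjusted p = 0.0414). Without the second control of 120 days that difference was -2.28 (adjusted p = 0.138), and without the second control of 60 days -2.52 (adjusted p = 0.137). Without the first or the third control of 60 days or the third control of 120 days the adjusted p was 0.0569, 0.0785 and 0.0572, and it lay between 0.0511 and 0.0552 without the second G93A array of 60 days or any G93A array of 90 days. The log2 ratio of 3' to 5' Gapdh signal also differed in this comparison, between 4.22 and 4.73 in controls of 120 days and between 3.00 and 3.66 in controls of 60 days. With that ratio in the model neither fall passed (P2ry12 -2.86, adjusted p = 0.257, and Cx3cr1 -2.40, adjusted p = 0.130), while Tyrobp (3.72, adjusted p = 0.0144) and Laptm5 1436905_x_at (1.90, adjusted p = 0.0310) did. The P2ry12 call held in 13 of 28 alternative settings and the Cx3cr1 call in 19 of 29.

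Centring each array on its median moved the age comparison in controls. The median of all probe sets there was 0.24 with centring, against -0.26 as deposited, and 90.2% of calls were higher with centring, against 57.6% as deposited. With centring Tyrobp differed by 3.75 (limma adjusted p = 0.000237) and Laptm5 1436905_x_at by 2.00 (adjusted p = 0.00146). The falls of Cx3cr1 (-1.56, adjusted p = 0.0998) and P2ry12 (-2.43, adjusted p = 0.0799) no longer passed, and none of the 4 turned direction. With quantile normalization Laptm5 1436905_x_at differed by 1.08 (adjusted p = 0.0666).

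The pattern of Tyrobp over the 18 arrays was set beside that of 10050 other genes as a description, since all share the same arrays and scaling. The highest Pearson correlations of log2 level were those of Fermt3 (0.902), an integrin activator of blood-derived cells, Mt1 (0.874), a metallothionein, Ly86 (0.872), a partner of a Toll-like receptor relative in myeloid cells, and Rps10 (0.856), a ribosomal protein. Aldoc (0.84), an aldolase of astrocytes, Cd44 (0.835), a hyaluronan receptor, Gab1 (0.831), a docking adaptor, and Nupr1 (0.831), a stress-response regulator, followed. Once group means were removed, r was 0.625 for Fermt3, 0.632 for Mt1, 0.132 for Ly86 and 0.753 for Nupr1. Among the other 12 tested probe sets, Laptm5 1436905_x_at (0.819) and Csf1r 1419873_s_at (0.783) and 1419872_at (0.764) were nearest to Tyrobp. Cx3cr1 (-0.337), P2ry12 (-0.208) and Laptm5 1426025_s_at (-0.164) had negative values, at percentiles 21.2, 33.8 and 38.5 of all tested probe sets. With group means removed the order was another: Laptm5 1436905_x_at had 0.128, Csf1r 1419873_s_at 0.549 and 1419872_at 0.394, and Fcer1g, at 0.147 over all arrays, had 0.507. The median correlation with Tyrobp over all 18 arrays was -0.06 across all tested probe sets.

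Genes downstream of the adaptors were examined next. Of 22 genes of TYROBP and Fc receptor signalling, 15 were tested, and 0 passed for genotype at any age or in the mean. At 120 days 14 of 15 had positive differences with a median of 0.71, beside 0.07 over all 10051 genes, and unadjusted p-values below 0.05 were found for 1 of 15. Plcg2, the phospholipase activated by SYK, differed by 1.19, 0.85 and 0.91 at 60, 90 and 120 days, and Nckap1l, an actin regulator of blood-derived cells, by 0.94, 0.51 and 0.63. Rac2, a GTPase of blood-derived cells, ran the other way with -1.53, -0.79 and -0.79. Of the 15, 6 were positive at 60 days, with a median of -0.26. Between 120 and 60 days in controls 2 of 15 passed, where 6.71% of all probe sets did. Both were lower: Dok3, an adaptor that restrains such receptors (-2.10 ± 0.56, limma adjusted p = 0.0260), and Grb2, a general adaptor (-1.15 ± 0.33, adjusted p = 0.0390). These 2 are named after their values were seen.

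Ligands of the receptors gave 5 tested genes of 7, and 0 passed for genotype. At 120 days all 5 tested had positive differences with a median of 0.88, and 3 had unadjusted p-values below 0.05. Icam1, a ligand of the integrin that ITGAM helps form, differed by 2.74 ± 0.85 (adjusted p = 0.197), Csf1, a ligand of CSF1R, by 0.88 ± 0.42 (adjusted p = 0.409), and Clu, an apolipoprotein bound by TREM2, by 0.68 ± 0.32 (adjusted p = 0.389). Apoe, also bound by TREM2, had 71.4, 272.1 and 183.3 in G93A mice at 120 days, against 53.8, 56 and 130.7 in controls, with overlap (1.06 ± 0.93). Clu rose between 120 and 60 days in G93A mice by 1.24 ± 0.32 (adjusted p = 0.0434). It was 1 of the 5 to pass there, where 2.00% of all probe sets did.

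Related receptors and partners gave 18 tested genes of 24, of which 0 passed for genotype. At 120 days 14 of 18 were positive with a median of 0.60, with 2 higher and 1 lower at unadjusted p below 0.05. Their 60-day differences were positive in 5 of 18, with a median of -0.36. Cd33, an inhibitory sialic acid receptor of myeloid cells, differed by 2.08, 0.09 and 0.84 at 60, 90 and 120 days, and the 60-day value had an adjusted p of 0.0604. Treml1, the TREM-like receptor of platelets, had -1.81, -1.75 and -1.28, and P2rx7, an ATP-gated channel, -0.34, -0.75 and -2.18.

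Other microglia and macrophage genes gave 15 tested genes of 20, and 0 passed for genotype. At 120 days 12 of 15 were positive with a median of 0.72. C1qa, a chain of complement C1q, had the smallest p of them at that age (2.50 ± 0.48, limma adjusted p = 0.0505). Ly86 differed by 2.58, 1.34 and 2.32 at 60, 90 and 120 days, and Ctss, the cathepsin S of microglia, by 1.45, 1.22 and 0.56. Over the whole list 6 of 15 were positive at 60 days, with a median of -0.16 beside -0.06 over all genes. Between 120 and 60 days in controls 2 of the 15 passed as higher and 1 as lower, where 6.71% of all probe sets passed. Ctss rose (2.07 ± 0.35, adjusted p = 0.00119) and Ly86 rose (2.89 ± 0.81, adjusted p = 0.0328), while C1qa fell by 2.09 ± 0.48 on the log2 scale (adjusted p = 0.0102). The summed signal of the 15 genes lay between 2773.1 and 3712.5 in G93A arrays of 120 days, against 1602.5 to 1919.9 in controls of that age.

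Markers of other cells moved in the same arrays. Of T cell, B cell, NK cell and granulocyte markers 10 of 16 were tested, 8 of 10 were positive at 120 days with a median of 0.90, and 0 passed for genotype. Their summed signal lay between 611.9 and 782.2 in G93A arrays of 120 days, against 332 to 461.8 in controls. Cd3g and Cd79a, of T and B cells, exceeded their array's median on 1 array each. Cd3e, also of T cells, did so on 6, with signals between 6.9 and 127.4. In controls 2 of the 10 passed between 120 and 60 days, where 6.71% of all probe sets did. These 2 were the granulocyte genes S100a8 (-2.75 ± 0.63, limma adjusted p = 0.0107) and Ngp (-1.69 ± 0.39, adjusted p = 0.0115), both lower at 120 days. The other granulocyte genes of the list did not pass: S100a9 had 0.21 ± 0.64 and Camp -0.35 ± 0.45. The microglial receptor genes Cx3cr1 and P2ry12 fell in the same comparison. S100a8 and S100a9 are named after their values were seen. Border macrophage and monocyte markers gave 7 tested genes of 8, of which 5 were positive at 120 days with a median of 0.32, and their summed signal lay between 394.9 and 458.8 in G93A arrays, against 129.6 to 484.5 in controls. Mrc1, the mannose receptor of border macrophages, differed by -0.01 ± 1.08.

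Motor neuron markers had negative differences at 120 days in 6 of 8 tested genes, with a median of -0.75, and 0 passed. Their summed signal lay between 8804.9 and 16392.5 in G93A arrays of 120 days, against 14507 to 28794 in controls. Nefh, the heavy neurofilament chain, differed by -1.32 ± 0.41 (adjusted p = 0.200) and Nefm, the medium chain, by -1.61 ± 0.66 (adjusted p = 0.319). Astrocyte markers had a median of 0.24 at 120 days over 10 tested genes, with 6 positive, and their summed signal lay between 6368.1 and 9086.9 in G93A arrays, against 4674.4 to 7343.6 in controls. Gfap, the astrocyte filament, had 406.2, 846.5 and 427.7 in G93A mice at 120 days, against 65, 104.9 and 199.4 in controls (2.25 ± 0.57, adjusted p = 0.121). Gfap rose between 120 and 60 days in G93A mice by 3.30 ± 0.57 (limma adjusted p = 0.00551), the comparison in which Tyrobp, Csf1r and Laptm5 rose. It was the only 1 of the 10 astrocyte markers to pass there, where 2.00% of all probe sets did. Of the 10, 4 were positive with a median of -0.23, and Gja1, an astrocyte gap junction protein, had -1.27. Oligodendrocyte and endothelial markers had medians of 0.15 and 0.17 at 120 days over 8 tested genes each, with 4 and 5 positive, and 0 passed. Between 120 and 60 days in controls 7 of 8 oligodendrocyte markers were positive with a median of 1.01. Over all genes 41.7% were positive there, with a median of -0.22. Of the 8, 2 passed, where 6.71% of all probe sets did: the myelin genes Mobp (3.06 ± 0.76, limma adjusted p = 0.0187) and Mbp (1.31 ± 0.38, adjusted p = 0.0390). The summed signal of the 8 markers lay between 14699.6 and 22125.2 in controls of 120 days, against 5215.2 to 7901.5 at 60 days. Tyrobp and Laptm5 1436905_x_at rose and Cx3cr1 and P2ry12 fell in that comparison. In G93A mice 5 of 8 were positive between the same ages with a median of 0.76, and 0 passed. Mbp and Gja1 are named after their values were seen. At 60 days, where Tyrobp passed, the list medians were 0.55 for astrocyte, 0.66 for oligodendrocyte, 0.43 for border macrophage, 0.02 for endothelial and -0.29 for motor neuron markers. At 90 days they were 0.88, 0.45, 0.49, 0.97 and -0.51 in the same order. The part of other cell types in the differences of the receptor genes was not tested.

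**Figure D4:**
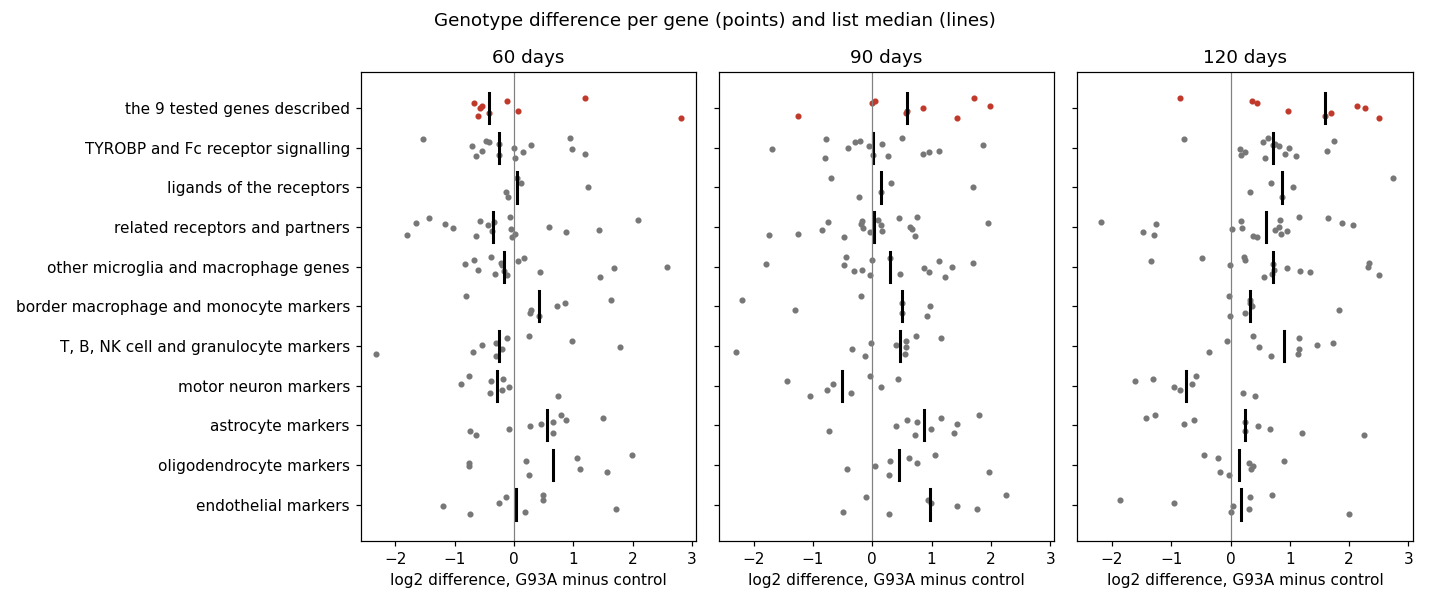
Log2 difference, G93A minus control, of the tested genes of each list at 60, 90 and 120 days, 1 point per gene, with a line at the median of each list. At 120 days the 9 tested receptor and adaptor genes (top row) have a median of 1.60 and motor neuron markers -0.75, beside 0.07 over all 10051 genes.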

How the data were processed

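Expression was measured on 18 one-colour Affymetrix arrays, 1 per animal, grouped by the sample labels. The deposited values are linear signal intensity, 1 per probe set and array. The authors used MAS5, according to the labels' list of tools and per the submitters' processing notes, with version and settings not stated there. The trimmed mean of each array, with 2% cut from each end, was 100 to 100.1. Values under 1 were set to 1 (965 of 408420, 0.236%) and put on the log2 scale, with no further normalization. Detection calls were not used here. Genes were named from probe sets with 1 symbol in the platform annotation (20380 probe sets, of which 20351 matched a table of mouse genes by Entrez identifier, while 691 carried several symbols and 1555 none). The 64 control probe sets were left out.

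Probe sets above their array's median in at least 3 of 18 arrays were tested (16565). limma 3.58.1 in R 4.3.3 fitted the 6 group means with 12 residual degrees of freedom and empirical Bayes moderation with a trend. P-values are two-sided and adjusted by Benjamini-Hochberg over the 16565 within each comparison, and they measure the spread between animals. The number of arrays limits the precision: genotype differences at a given age had a median standard error of 0.69. Arrays of a group correlated at r between 0.641 and 0.838. The code was tested on simulated data. In lists each gene has 1 probe set, the tested one with the highest mean, and _x_at only where no other was tested (10051 genes), so Laptm5 enters the list values through another probe set than 1436905_x_at. The 10 genes, the lists and the tests were chosen with earlier results of these data known. Named from each other list were up to 4 genes of smallest p in the mean over ages, and 8 genes most like Tyrobp. Alternatives covered the floor, pseudocount, filter, scaling, moderation, array weights, samples in the fit, a replicate block, 2 array-quality covariates and leaving out each array. Promoter windows came from RefSeq, and no sequence was used in a test.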

Additional observations from a re-analysis of the deposited data

Results flagged for a closer look

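Trem2 probe set 1421226_at lay lower in all 3 G93A arrays than in all 3 controls at 90 days (-1.26 on the log2 scale, and -0.58 without the first control of 90 days) and higher in all 3 at 120 days (1.60). The F test of a change of the genotype difference with age had a limma adjusted p of 0.440, so the opposite directions were not shown to differ. The second Trem2 probe set, 1421792_s_at, which was too low to be tested, had a difference of 1.03 at 120 days with every G93A array above every control.

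Csf1r probe set 1423593_a_at was higher at 120 than at 60 days in every G93A array (1.20) and lower in every control array (-1.49). Adjusting for the hybridization controls turned the G93A value to -0.81, and adjusting for the Gapdh ratio gave -0.21 in controls. The F test over the 3 ages had an adjusted p of 0.397, and the other Csf1r probe sets were positive in both genotypes. Groups of 3 arrays are too small for a test of single outlying arrays.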

How the results depend on the processing

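Each result was recomputed under up to 30 alternatives, and the counts below are tested probe sets of the 10 genes that passed, of 13. At 60 days the count was 1 and became 0 with the Gapdh ratio or the hybridization-control level as covariate, without the trend, and with only the groups compared. It ranged from 0 to 1 when 1 array was left out, and was 0 without the first or the second G93A array of 60 days. At 120 days the count was 0 and became 1 with the Gapdh ratio or a floor of 16, and 2 with the hybridization-control level or a pseudocount of 16. It ranged from 0 to 4 with 1 array left out, with 4 without the third control of 120 days and 1 without the third G93A array of 120 days or the first control of 90 days. In the mean over ages 1 became 0 with the Gapdh ratio and without the trend, and ranged from 0 to 1, with 0 without the second G93A array of 120 days. Between 120 and 60 days in G93A mice 4 became 2 without the trend and ranged from 3 to 4. In controls 4 became 2 with the Gapdh ratio, with centred arrays and with only the groups compared, 1 without the trend and with quantile normalization, and 6 with the hybridization-control level; it ranged from 2 to 5, with 2 without the first or the third control of 60 days. At 90 days and in the F test the count was 0 in every alternative run. The cause of these moves was not tested. Over all probe sets the calls ranged from 1 to 267 at 60 days (114 in the report), 0 to 141 at 120 days (4) and 143 to 1803 between ages in controls (1112). At 120 days 75% of the calls over all probe sets were higher as deposited, 100% with quantile normalization and 0% with centring, and between ages in controls 57.6%, 65.7% and 90.2%. None of the 10 called values changed sign, and 23 of the 68 others did in at least 1 alternative. The replicate block, with the sample numbers of the labels as pairs within an age, left the counts at 1, 0 and 0 at the 3 ages and at 1 in the mean, and it changed no other call; it could not be fitted for the comparisons between ages. Same-numbered arrays correlated at -0.116 to 0.0576 in their deviations over 9 pairs, so the numbers were not taken to pair the animals. Dim signal limits the low probe sets: 3 of the 16 were too low to be tested.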
